A study of Mus musculus with 12 samples.

Results

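The 36 genes described here encode enzymes that make, recycle, interconvert or break down nucleotides. They were chosen by symbol, as every entry of the raw count table whose Ensembl ID maps to one of 36 listed mouse genes. All 36 were found among the 56691 IDs of the table, and all 36 were among the 15935 genes that passed the filter on low counts. By role, 2 make phosphoribosyl pyrophosphate (PRPP), 13 belong to purine steps, 7 to pyrimidine steps, 2 are nucleoside diphosphate kinases and 12 act on deoxynucleotides.

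RNA was sequenced from naive CD8+ T cells of mouse spleen, labelled Senp1 WT or Senp1 CKO. SENP1 is a protease that removes the small protein modifier SUMO from other proteins. Each genotype was sampled without stimulation (0 h) and after 48 h with anti-CD3 at 5 μg/ml and anti-CD28 at 1 μg/ml, antibodies that engage the T-cell receptor complex and the costimulatory receptor CD28. There were 4 groups of 3 libraries: WT at 0 h, WT at 48 h, CKO at 0 h and CKO at 48 h. The sources used here do not give the driver of the CKO, the part of Senp1 that it removes, or the strain, age and sex of the mice. They also do not state whether the 3 libraries of a group are separate animals. The p-values therefore describe library-to-library spread, which may be technical.

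Each library held 15900529 to 22427151 counts. The times separated on the first principal component (83.4% of the variance) and the genotypes on the second (4.68%). Senp1 itself gave 77.9 to 85.4 CPM in WT and 54.6 to 59.8 in CKO at 0 h, and 150.3 to 170.8 in WT and 66.3 to 74.5 in CKO at 48 h. CPM, the usual depth-scaled unit of RNA-seq counts, were computed on library totals multiplied by edgeR's TMM factor. The CKO mean of Senp1 was 69.1% of WT at 0 h and 43.5% at 48 h. The summed level of 5 CD8 T cell markers (Cd3e, Cd3g, Cd8a, Cd8b1 and Trac) was 2890 to 3080 CPM in WT and 2800 to 2980 in CKO at 0 h. At 48 h it was 1370 to 1430 in WT and 1160 to 1210 in CKO. Between genotypes 1 of the 5 was called lower in CKO at 0 h and 2 at 48 h, where 3.38% and 2.19% of all genes tested were lower. RNA of other cells was present too: 5 B cell markers summed to 687 to 1280 CPM in WT and 643 to 690 in CKO at 0 h, and to 285 to 322 and 247 to 270 at 48 h. The markers of natural killer cells (3 genes), myeloid cells (4) and erythroid cells (3) summed to 83.7 CPM or less per list in every library, and 3 CD4 T cell markers summed to 46.4 to 90.2. At 48 h Hbb-bs was at 0 in all 6 libraries.

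Cells build purine rings step by step on PRPP until inosine monophosphate (IMP) is reached, which is then turned into AMP or GMP. Pyrimidine rings are built first and then joined to PRPP, giving UMP and from it CTP. Ribonucleotide reductase converts ribonucleoside diphosphates into their deoxy forms, and thymidylate is made from deoxyuridylate. Salvage kinases and phosphoribosyltransferases recycle bases and nucleosides. Resting T cells rely mostly on salvage and have small nucleotide pools, whereas T cells that prepare to divide raise both routes.

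Promoter sequence was read for the members because most of them rose at 48 h. Short stretches are shown to let a reader see the letters that several of them share. RefSeq promoter entries of build GRCm38.p6 were found for 33 of the 36 genes, the others being Dhodh, Pfas and Rrm2b. In the 250 bases before the annotated start, the E-box letters CACGTG, which MYC and related factors can bind, were present in 7 of 33 members (21.2%) and in 6.86% of all 27025 genes in that table. Those 27025 genes were not filtered on expression, whereas all 36 members passed the filter on low counts. The E-box reads the same on both strands. Each stretch is 30 bases long, on the gene's own strand from 5′ to 3′, with the E-box in capitals.
Atic (chr1:71557126-71557155, + strand): gaggaggggcgggacctcggggtCACGTGg
Dnph1 (chr17:46496759-46496788, + strand): cgctttcccaggtCACGTGgtagcggcggc
Dtymk (chr1:93802065-93802094, - strand): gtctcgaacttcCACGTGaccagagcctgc
Impdh2 (chr9:108560314-108560343, + strand): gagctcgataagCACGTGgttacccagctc
Nme1 (chr11:93968273-93968302, - strand): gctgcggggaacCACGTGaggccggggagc
Paics (chr5:76951087-76951116, + strand): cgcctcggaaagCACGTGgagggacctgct
Tyms (chr5:30073669-30073698, - strand): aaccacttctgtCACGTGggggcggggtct
The match began 7 bases before the start in Atic, 17 in Dnph1, 18 in Nme1, 61 in Tyms, 110 in Impdh2, 148 in Dtymk and 203 in Paics. These 7 genes span purine synthesis, thymidylate supply, diphosphate kinases and nucleotide breakdown. A match is a description of the letters and not evidence of binding.

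Letters of the E2F site, which cell cycle genes often carry, were searched as TTTCCCGC, TTTCGCGC, TTTGCCGC and TTTGGCGC on both strands. Within the same windows they occurred in 1 of 33 members (3.03%) and in 2.16% of all genes. That member was Ppat, with 2 matches on the strand opposite to the gene, shown here on the gene's own strand with the match in capitals.
Ppat (chr5:76951771-76951800, - strand): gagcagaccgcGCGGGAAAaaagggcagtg
Ppat (chr5:76951718-76951747, - strand): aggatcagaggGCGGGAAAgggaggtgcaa
The box CCAAT, searched on both strands, was present in 11 of 33 members (33.3%) and in 37.5% of all genes, so its share among the members was no higher than in the table as a whole.

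Stimulation for 48 h changed nearly all of these genes in both genotypes. In WT cells 32 of 36 members rose and 3 fell, where 38.7% of all genes tested rose and 39.1% fell. In CKO cells 31 rose and 4 fell, where 38.5% of all genes rose and 39.2% fell. The median log2 change of the members was 1.76 in WT and 1.78 in CKO, and that of all genes was -0.03 and -0.04. A gene is said to rise or fall where edgeR's quasi-likelihood test gave a Benjamini-Hochberg adjusted p under 0.05 over all 15935 genes. Log2 changes are given with their standard error (SE). These are RNA levels of a whole culture, in which fewer cells of a type and less RNA per cell cannot be told apart. All 14 proliferation markers listed (among them Mki67, Top2a, Pcna and 6 Mcm genes) rose in each genotype too, with medians of 3.12 and 3.12, and the CD8 T cell, B cell, natural killer and erythroid lists fell in every member, as did 3 of 4 myeloid markers in WT and 4 of 4 in CKO. The part of these shifts in the result was not tested.

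**Figure D1:**
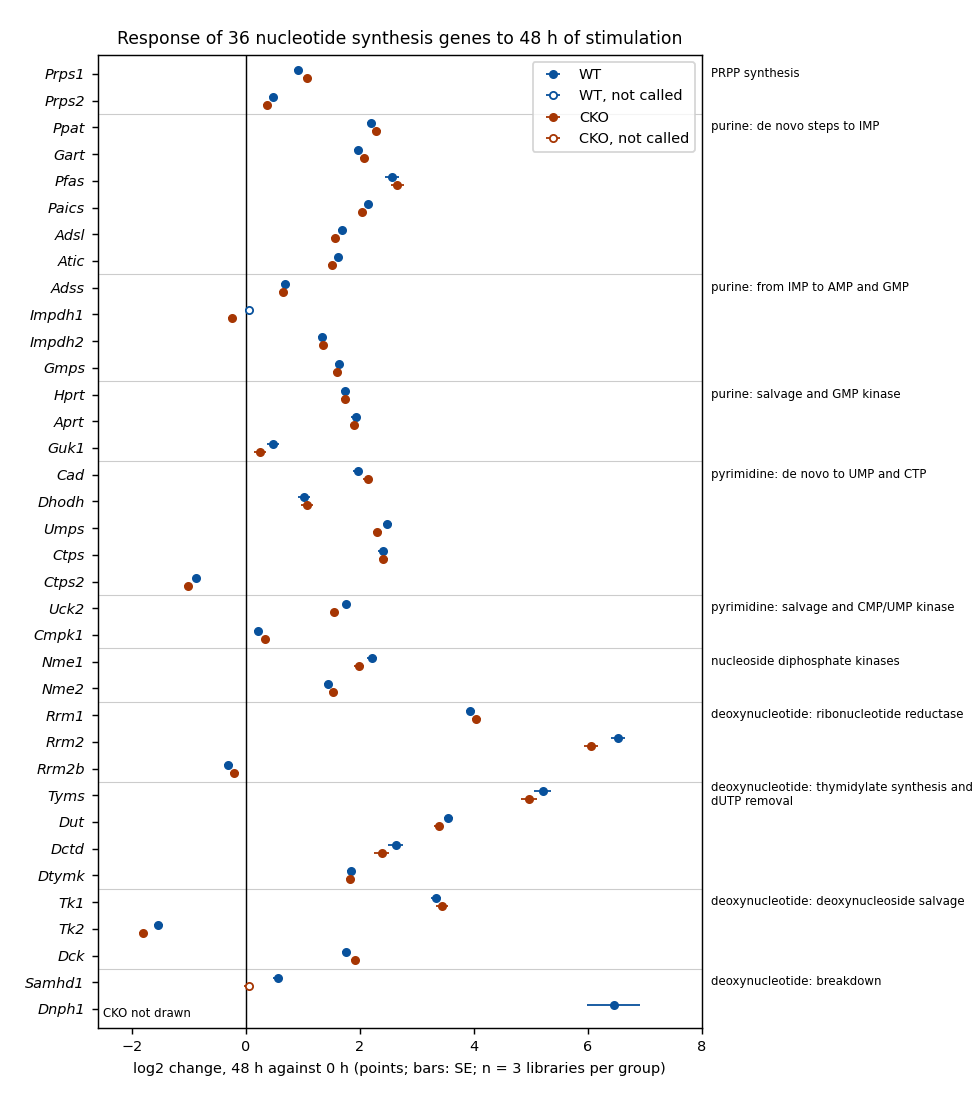
Log2 change at 48 h against 0 h (x axis) for each of the 36 genes (y axis), in WT (blue) and CKO (red) cells. Points are edgeR estimates from 3 libraries per group, bars are SE, and open points did not pass the test. Rrm2, Dnph1 and Tyms lie farthest right, Tk2, Ctps2, Rrm2b and, in CKO, Impdh1 lie left of 0, and Dnph1 is drawn for WT alone because CKO had 2 counts at 0 h.

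The PRPP synthetases make the sugar phosphate that both routes use, and both genes rose by a modest amount. Prps1 gave 65.1, 75.5 and 74.7 CPM in the WT libraries at 0 h and 142.1, 131.6 and 132.6 at 48 h. In CKO it gave 70.01, 70.2 and 64.7 CPM at 0 h and 144.8, 140.7 and 146.3 at 48 h. All 48 h libraries lay above all 0 h libraries, and the log2 change was 0.92 ± 0.0665 (SE) in WT and 1.08 ± 0.067 in CKO. Prps2, the second isoform, changed less, by 0.47 ± 0.0688 and 0.36 ± 0.069.

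The 6 members that carry PRPP to IMP all rose in both genotypes, by 1.61 to 2.57 on the log2 scale in WT and by 1.51 to 2.66 in CKO. Ppat, the amidophosphoribosyltransferase that commits PRPP to purines, gave 48.2, 46.9 and 43.1 CPM in WT at 0 h and 200.8, 225.3 and 207.4 at 48 h. In CKO its values were 41.6, 48.9 and 43.2 CPM at 0 h and 212.9, 215.5 and 225.5 at 48 h. The times did not overlap, and the fold was 4.59 in WT (edgeR adjusted p = 6.29e-16) and 4.89 in CKO (4.15e-16). Pfas, which adds an amide nitrogen midway along the route, had the largest change of the 6. It went from 28.9, 26.2 and 29.9 CPM to 136.2, 187.0 and 178.8 in WT, and from 24.1, 26.7 and 31.2 to 171.2, 163.4 and 182.7 in CKO. WT replicate 1 at 48 h was the lowest of the 6 stimulated libraries for Pfas and still lay above every 0 h library.

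Paics, which catalyses a carboxylation and the following condensation, was the most abundant of the 6 in CPM per kilobase of exon, at 126.5 in both genotypes at 48 h. That scale rests on exon lengths taken as the union over annotated transcripts, 3.139 kb for Paics and up to 7.985 kb for Atic. In CPM Paics was also the highest of the 6 at 48 h, with means of 397.1 in WT and 397.0 in CKO. It rose by 2.15 ± 0.0632 in WT and 2.04 ± 0.063 in CKO. Gart, a protein with 3 enzyme activities in this route, rose by 1.97 ± 0.071 and 2.07 ± 0.0714. Adsl, adenylosuccinate lyase, rose by 1.69 ± 0.0703 and 1.56 ± 0.0702. Atic, which closes the ring to IMP, rose by 1.61 ± 0.059 and 1.51 ± 0.0589. Gart, Adsl and Atic had mean levels of 52.5 to 98.2 CPM at 0 h and 165.8 to 294.9 CPM at 48 h over both genotypes. Ppat and Paics are neighbours on opposite strands and share 272 exon bases in the GRCm38 annotation, and the sources used here give no strand setting for the counting. A small share of their reads could therefore be counted at either gene.

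From IMP onwards the members parted. Gmps, which makes GMP, rose by 1.63 ± 0.0601 in WT and 1.59 ± 0.0603 in CKO, and Adss, which starts the branch to AMP, rose by 0.69 ± 0.0695 and 0.65 ± 0.0696. The 2 IMP dehydrogenases, the rate-limiting enzymes on the way to GMP, differed. Impdh2 gave 133.6, 113.5 and 113.4 CPM in WT at 0 h and 316.0, 286.1 and 305.1 at 48 h, and in CKO 116.1, 118.6 and 116.4 and then 300.6, 305.9 and 296.4. Its 2 times were far apart in both genotypes, with a log2 change of 1.33 ± 0.0662 and 1.36 ± 0.0664. Impdh1 gave 92.5, 105.1 and 99.4 CPM in WT at 0 h and 102.4, 101.3 and 105.5 at 48 h, which overlap, and the change of 0.06 ± 0.0706 did not pass the test (edgeR adjusted p = 0.463). In CKO, Impdh1 went from 109.5, 117.9 and 96.3 CPM to 91.9, 92.3 and 90.3, a fall of 0.24 ± 0.0709 on the log2 scale (edgeR adjusted p = 0.005). Without CKO replicate 2 at 0 h that fall was 0.16 and edgeR's adjusted p was 0.0544. The test of the difference between these responses gave -0.30 ± 0.1 with an edgeR adjusted p of 0.182.

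Values of Impdh2 carry a limit from its pseudogene. Impdh2-ps matched the Impdh2 transcript at 99.74% over 1545 bases and held 12327 counts, 26.1% of the 47276 counts of Impdh2. Its counts went from 1472 to 4911 in WT and from 1419 to 4525 in CKO, summed over 3 libraries each. Reads of the 2 genes may have been counted at either.

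Purine salvage genes rose as well. Hprt, which returns hypoxanthine and guanine to IMP and GMP, had the highest level per exon length of all 36 members at both times in both genotypes. Its mean was 83.9 and 80.01 CPM per kilobase at 0 h in WT and CKO, and 279.9 and 265.7 at 48 h. It rose by 1.74 ± 0.0617 and 1.73 ± 0.0619. Its rank rests on exon lengths taken as the union over annotated transcripts, 1.289 kb for Hprt. Samhd1, at 9.15 kb, was near it in CKO at 0 h, with 74.15 CPM per kilobase. Aprt, which salvages adenine, rose by 1.93 ± 0.0773 and 1.90 ± 0.0779. Guk1, the kinase from GMP to GDP, gave 18.2 ± 1.25 CPM (SD, n = 3) at 0 h and 25.3 ± 2.19 at 48 h in WT, a log2 change of 0.47 ± 0.104. In CKO its change was 0.24 ± 0.104 with an edgeR adjusted p of 0.0395, and this call was lost with other scalings, a stricter filter, DESeq2, only the 2 groups compared, or 3 of the single libraries left out (adjusted p from 0.0605 to 0.173).

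Among the pyrimidine members, 6 of 7 rose and 1 fell in each genotype. The median log2 change was 1.76 in WT and 1.54 in CKO. Cad, the protein with the first 3 activities of pyrimidine synthesis, gave 81.99, 85.2 and 76.1 CPM in WT at 0 h and 273.6, 339.2 and 339.0 at 48 h. In CKO it gave 74.7, 81.1 and 80.4 CPM at 0 h and 335.1, 339.0 and 365.9 at 48 h. Every stimulated library held over 3 times the highest unstimulated value, and the log2 change was 1.97 ± 0.0793 and 2.14 ± 0.0799. Dhodh, the mitochondrial dehydrogenase of the route, rose by 1.02 ± 0.108 and 1.08 ± 0.11, and Umps, which completes UMP, by 2.48 ± 0.0786 and 2.30 ± 0.0782.

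The CTP synthases moved in opposite directions. Ctps gave 30.9, 33.3 and 34.6 CPM in WT at 0 h and 161.4, 176.8 and 183.9 at 48 h, and in CKO 30.5, 29.7 and 35.5 and then 177.0, 160.0 and 170.6. Ctps2 gave 115.5, 110.3 and 105.8 CPM in WT at 0 h and 60.5, 58.8 and 62.7 at 48 h, and in CKO 104.6, 114.2 and 106.5 and then 52.9, 55.3 and 53.02. Neither gene's times overlapped in either genotype. Ctps, the isoform that proliferating lymphocytes are known to depend on, rose by 2.40 ± 0.0784 in WT and 2.41 ± 0.079 in CKO. Ctps2 fell by 0.87 ± 0.0626 and 1.01 ± 0.0633 on the log2 scale. Per kilobase of exon, the level of Ctps was below that of Ctps2 at 0 h in WT (9.93 against 23.4 CPM) and above it at 48 h (52.5 against 12.9).

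The 2 remaining pyrimidine members act in salvage and phosphorylation. Uck2, the uridine and cytidine kinase, rose by 1.76 ± 0.0576 in WT and 1.54 ± 0.0572 in CKO. Cmpk1, which phosphorylates UMP and CMP, had the smallest rise that passed the test in WT, 0.21 ± 0.0577 (edgeR adjusted p = 0.00282), and 0.34 ± 0.0579 in CKO. Nme1 and Nme2, diphosphate kinases that serve all bases, rose by 2.21 ± 0.0839 and 1.44 ± 0.0724 in WT and by 1.99 ± 0.0835 and 1.53 ± 0.0736 in CKO. Nme2 has near-identical pseudogenes, of which Gm7730 (97.81% over 457 bases) held 2650 counts against 11915 for Nme2, so its count is uncertain.

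The deoxynucleotide members gave the largest changes of the set. In WT 10 of 12 rose and 2 fell, and in CKO 9 rose, 2 fell and Samhd1 was not called. The medians were 2.98 and 2.88, against 1.69 and 1.59 for the purine members. Rrm1, the large subunit of ribonucleotide reductase, gave 49.01, 45.9 and 39.2 CPM in WT at 0 h and 660.9, 700.6 and 692.1 at 48 h. In CKO it gave 38.6, 42.6 and 39.6 and then 666.1, 656.0 and 671.4. The groups at the 2 times were more than 10-fold apart, with a fold of 15.3 in WT (edgeR adjusted p = 5.41e-19) and 16.5 in CKO (5.6e-19).

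Rrm2, the small subunit made in dividing cells, changed most among members with more than 13 counts at 0 h. It gave 5.67, 4.05 and 6.60 CPM in WT at 0 h and 495.8, 506.0 and 495.3 at 48 h, and in CKO 7.31, 5.99 and 8.35 and then 483.4, 466.1 and 494.0. The stimulated libraries of both genotypes lay within 466.1 to 506.0 CPM, with every CKO library below every WT library. The genotype difference at 48 h, -0.05 ± 0.088, did not pass the test (edgeR adjusted p = 0.838). The fold was 92.5 in WT and 66.7 in CKO, or 6.53 ± 0.123 and 6.06 ± 0.12 on the log2 scale. Rrm2b, the alternative small subunit that serves quiescent cells and DNA repair, went the other way. It gave 42.9, 39.6 and 40.9 CPM in WT at 0 h and 34.4, 32.8 and 32.8 at 48 h, and it fell by 0.30 ± 0.0782 on the log2 scale. In CKO it gave 34.4, 33.9 and 38.2 CPM and then 32.9, 29.03 and 30.8, a fall of 0.20 ± 0.0796 (edgeR adjusted p = 0.0285). That CKO call was lost with no count filter (adjusted p = 0.164) and without CKO replicate 3 at 0 h (0.155), replicate 2 at 48 h (0.136) or replicate 3 at 48 h (0.0657).

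Per kilobase of exon, Rrm2 was at 1.96 CPM and Rrm1 at 4.06 in WT at 0 h, and at 48 h Rrm2 was at 180.1 and Rrm1 at 62.2. The order of the 2 subunits differed between the times on that scale, and the CKO means (2.61 and 3.66, then 173.6 and 60.3) had the same order at each time. It rests on exon lengths of 11.0 kb for Rrm1 and 2.77 kb for Rrm2, the union over annotated transcripts. In CPM, Rrm1 was above Rrm2 at both times. Rrm2b stood at 4.50 CPM per kilobase in WT at 0 h, above Rrm2, and at 3.65 at 48 h, far below it.

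Thymidylate synthesis and dUTP removal rose together, with 4 of 4 members up in each genotype. Tyms, thymidylate synthase, gave 4.35, 2.94 and 2.2 CPM in WT at 0 h and 118.5, 112.4 and 119.3 at 48 h, and in CKO 3.20, 4.60 and 3.11 and then 111.1, 113.9 and 116.8. Its log2 change was 5.21 ± 0.144 and 4.97 ± 0.143. Low counts at 0 h (171 in WT and 179 in CKO over 3 libraries) widen the error of that fold. A stretch of Tyms also matched transcripts of other genes, among them Map3k2 (95.52% over 357 bases, 8786 counts in WT at 0 h). Whether reads of those genes were counted at Tyms was not tested. Dut, which hydrolyses dUTP to dUMP and so keeps uracil out of DNA, gave 19.8 ± 0.782 CPM (SD, n = 3) in WT at 0 h and 232.8 ± 10.2 at 48 h, and rose by 3.55 ± 0.0754 in WT and 3.38 ± 0.0756 in CKO. Dctd, dCMP deaminase, rose by 2.63 ± 0.127 and 2.38 ± 0.128, and Dtymk, thymidylate kinase, by 1.84 ± 0.0707 and 1.83 ± 0.0716.

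The thymidine kinases also split. Tk1, the cytosolic enzyme of dividing cells, gave 8.02, 7.04 and 6.66 CPM in WT at 0 h and 74.3, 72.5 and 72.4 at 48 h, and in CKO 5.96, 4.97 and 6.83 and then 64.4, 64.3 and 64.1. Tk2, the mitochondrial enzyme, gave 62.3, 57.5 and 61.1 CPM in WT at 0 h and 20.8, 20.99 and 20.8 at 48 h, and in CKO 57.9, 59.8 and 56.3 and then 16.6, 16.4 and 16.9. The high and low groups of both genes were the reverse of each other, with no overlap between times. Tk1 rose by 3.34 ± 0.0962 in WT and 3.44 ± 0.1 in CKO, and Tk2 fell by 1.53 ± 0.071 and 1.80 ± 0.0731 on the log2 scale. Dck, which phosphorylates deoxycytidine and purine deoxynucleosides, rose by 1.75 ± 0.0676 and 1.91 ± 0.0686.

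Breakdown enzymes complete the set. Dnph1, a hydrolase that removes hydroxymethyl-dUMP, was close to absent at 0 h, with 13 counts over the 3 WT libraries (12 of them in replicate 3) and 2 over the 3 CKO libraries. At 48 h it gave 21.8, 21.1 and 20.7 CPM in WT and 14.7, 18.1 and 17.9 in CKO. All 6 stimulated libraries were well above all 6 unstimulated ones. The ratio of CKO counts, scaled for depth, was 416 with a 95% interval of 115 to 3440 that covers counting error only. Samhd1, the triphosphohydrolase that degrades deoxynucleoside triphosphates, was the most abundant member in CPM at 0 h and is described with the genotypes.

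Within pairs of isoenzymes the ratio of counts was compared between times, since gene length cancels when the ratio of the same 2 genes is compared. The ratio of Ctps to Ctps2 went from 0.298 to 2.86 in WT and from 0.294 to 3.14 in CKO. That of Rrm2 to Rrm2b went from 0.13 to 15 in WT and from 0.203 to 15.6 in CKO, and that of Tk1 to Tk2 from 0.12 to 3.5 and from 0.102 to 3.86. In each of these 3 pairs the gene with more counts at 0 h was the one with fewer at 48 h. The other pairs moved less: Impdh2 to Impdh1 from 1.21 to 2.93 and from 1.09 to 3.29, Prps1 to Prps2 from 0.57 to 0.779 and from 0.542 to 0.886, and Nme1 to Nme2 from 0.997 to 1.7 and from 1.25 to 1.71. In all 14 comparisons of times, the ratio of Rrm2 to Rrm1 included, the 3 libraries of one time lay apart from the 3 of the other. The exact two-sided permutation test cannot go below p = 0.10 with 3 against 3, which each of the 14 reached, and the adjusted value over 28 comparisons was 0.156.

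**Figure D2:**
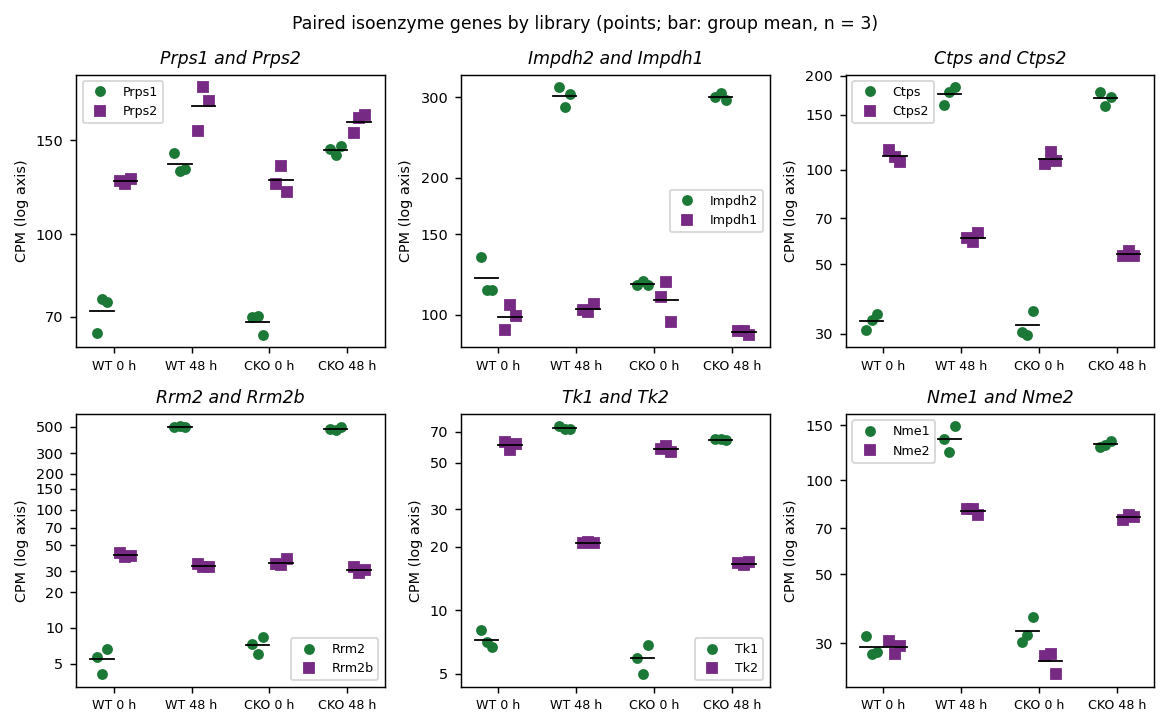
CPM (log axis) of 6 pairs of isoenzyme genes in the 12 libraries, by group (x axis), with the first gene of a pair as green circles, the second as purple squares and the mean of 3 libraries as a bar. Ctps and Ctps2, Rrm2 and Rrm2b, and Tk1 and Tk2 exchange places between 0 h and 48 h in both genotypes.

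Taken as a share of all counts, the 36 genes held 0.248% to 0.259% in the WT libraries at 0 h and 0.711% to 0.729% at 48 h. In CKO they held 0.262% to 0.275% and then 0.700% to 0.714%. The purine members held the largest share at 48 h (0.287% ± 0.00396, SD, n = 3, in WT and 0.287% ± 0.00338 in CKO). The deoxynucleotide members followed with 0.273% ± 0.00244 and 0.255% ± 0.00712, the pyrimidine members with 0.111% ± 0.00658 and 0.115% ± 0.00211.

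**Figure D3:**
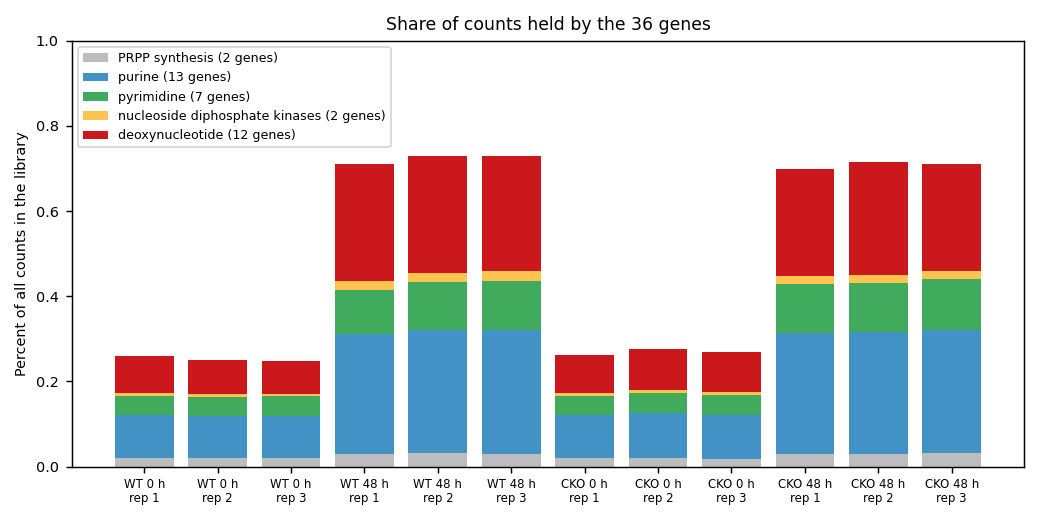
Percent of all counts (y axis) held by the 36 genes in each of the 12 libraries (x axis), stacked by role. The total lies between 0.248% and 0.275% in the 6 unstimulated libraries and between 0.700% and 0.729% in the 6 stimulated ones.

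The effect of the Senp1 genotype on these genes was small at both times. At 0 h, 2 of 36 members were higher in CKO and 0 were lower, where 4.1% of all genes were higher and 3.38% lower. At 48 h, 0 members were higher and 1 was lower, where 2.35% of all genes were higher and 2.19% lower. The member shares are close to these backgrounds. For the counts of 0 by edgeR, 3 members were lower at 0 h at an unadjusted p under 0.05 (Rrm2b, Tk1 and Dck) and 0 were higher at 48 h, and DESeq2 called 0 in each case. The median difference was -0.04 at 0 h and -0.06 at 48 h, and that of all genes -0.01 at each time. By role, the medians at 48 h were -0.02 for the purine members, -0.01 for the pyrimidine members and -0.15 for the deoxynucleotide members. All 12 deoxynucleotide values at 48 h were below 0 (-0.33 to -0.04), also under the other scalings, although Tk2 alone passed the test. The 8 other deoxynucleotide genes listed for comparison ran from -0.47 to -0.13 with 0 called, and the 14 proliferation markers had a median of -0.07. These values share their libraries and are a description. Without Dnph1, whose counts at 0 h are too few, the differences ran from -0.29 to 0.42 at 0 h and from -0.33 to 0.13 at 48 h. The 95% intervals, from the SE and 8 residual degrees of freedom, lay within 0.5 on the log2 scale for 32 of 35 members at 0 h, the others being Rrm2, Tyms and Tk1, and for 34 of 35 at 48 h, the other being Tk2.

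**Figure D4:**
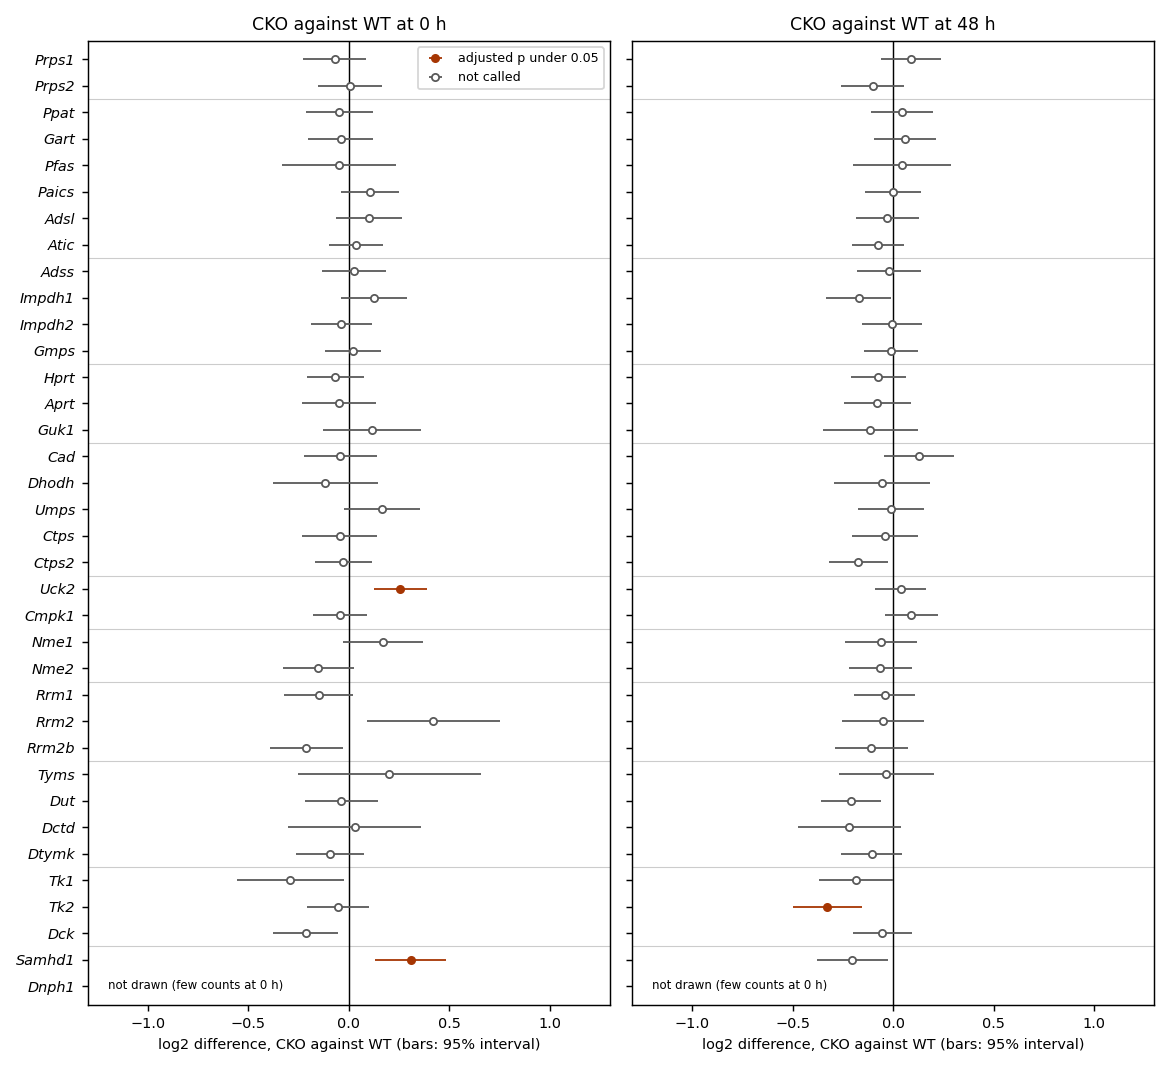
Log2 difference of CKO against WT (x axis) for 35 genes (y axis) at 0 h (left) and 48 h (right), with 95% intervals, from 3 libraries per group. Filled points passed the test: Uck2 and Samhd1 at 0 h and Tk2 at 48 h. Dnph1 is not drawn.

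Samhd1 was higher in CKO before stimulation and did not keep that place. It gave 590.4, 548.9 and 504.5 CPM in WT at 0 h and 647.4, 696.5 and 691.6 in CKO. At 48 h it gave 869.4, 778.7 and 776.0 CPM in WT and 672.6, 789.4 and 642.4 in CKO. All CKO libraries lay above all WT libraries at 0 h, whereas at 48 h the genotypes overlapped through CKO replicate 2. The difference was 0.31 ± 0.0765 at 0 h (edgeR adjusted p = 0.0169) and -0.20 ± 0.0763 at 48 h (0.156), which passed with no count filter (0.0153) and without CKO replicate 2 at 48 h (0.0303). Samhd1 rose by 0.56 ± 0.0766 with stimulation in WT (edgeR adjusted p = 1.76e-06) and changed by 0.05 ± 0.0764 in CKO, which did not pass the test (0.573).

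The test of the difference between the 2 responses of Samhd1 gave -0.51 ± 0.108 (edgeR adjusted p = 0.0187). It was the 1 member called lower in that test and 0 were called higher, where 0.772% of all genes were lower and 0.609% higher. At an unadjusted p under 0.05, 0 members were higher, and DESeq2 called 0 higher. Leaving out single libraries ended both calls in some cases. The difference at 0 h had an edgeR adjusted p of 0.0555 without WT replicate 2, 0.0958 without WT replicate 3, 0.0575 without CKO replicate 2 and 0.0733 without CKO replicate 3. The difference of the responses had one of 0.057 without WT replicate 3 at 0 h, 0.0587 without CKO replicate 3 at 0 h and 0.0548 without CKO replicate 3 at 48 h. Myeloid markers, cells in which SAMHD1 is abundant, summed to 34.1 to 56.6 CPM in WT and 37.5 to 71.1 in CKO at 0 h, and 0 of 4 were called between genotypes at either time. The part of those cells in the result was not tested.

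Uck2 was the other member higher in CKO at 0 h. It gave 80.3, 80.2 and 82.7 CPM in WT and 90.97, 102.2 and 97.3 in CKO, with no overlap, a difference of 0.26 ± 0.0574 (edgeR adjusted p = 0.00872). This call held with each single library left out. At 48 h Uck2 gave 271.4, 278.6 and 275.9 CPM in WT and 280.3, 280.6 and 286.2 in CKO, again with no overlap. The difference of 0.04 ± 0.0551 did not pass the test, with a 95% interval of -0.09 to 0.164. Nor did the difference between the responses of Uck2, -0.22 ± 0.0796 (edgeR adjusted p = 0.216).

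Tk2 was the member lower in CKO at 48 h. Its 3 WT values of 20.8 to 20.99 CPM lay above the 3 CKO values of 16.4 to 16.9, and the difference was -0.33 ± 0.0752 (edgeR adjusted p = 0.0135). The call was lost when only the 2 groups compared were fitted (0.0561), and without WT replicate 3 (0.0538), CKO replicate 1 (0.0571), CKO replicate 2 (0.0565) or CKO replicate 3 (0.0526) at 48 h. At 0 h Tk2 differed by -0.05 ± 0.0674, with overlap. The difference between its responses, -0.27 ± 0.101, did not pass the test (edgeR adjusted p = 0.228).

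**Figure D5:**
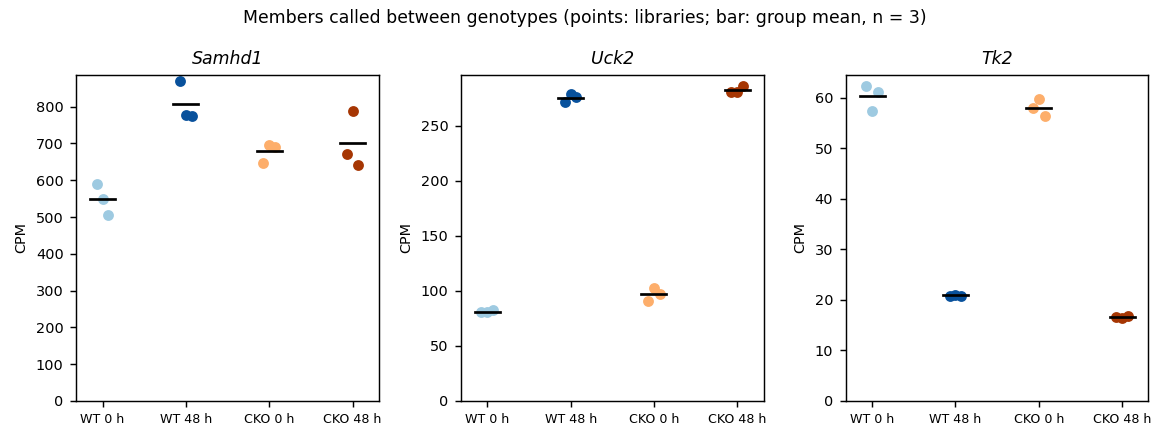
CPM (y axis, from 0) of Samhd1, Uck2 and Tk2 in the 12 libraries by group (x axis), with the mean of 3 libraries as a bar. Samhd1 and Uck2 are higher in CKO than in WT at 0 h, and Tk2 is lower in CKO at 48 h, with no overlap of libraries in those comparisons.

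Several other deoxynucleotide members stood near the threshold. Rrm2 at 0 h was 0.42 ± 0.143 higher in CKO, with overlapping libraries and an edgeR adjusted p of 0.0893. It passed with no count filter (0.00525), with DESeq2 (0.0213), without WT replicate 3 at 0 h (0.0214) and without CKO replicate 2 at 0 h (0.0305). Beside it, 2 of the 14 proliferation markers, Mki67 and Top2a, were called higher in CKO at 0 h. Mki67 gave 19.1, 13.9 and 10.2 CPM in WT and 28.5, 20.8 and 35.2 in CKO, a difference of 0.97 ± 0.241 (edgeR adjusted p = 0.0462). Its call was lost in 10 of the 12 fits without 1 library, with edgeR adjusted p of 0.054 to 0.135. The call was also lost with a replicate block (0.0939), with no count filter (0.0814) and with only the 2 groups compared (0.132). Top2a differed by 0.81 (edgeR adjusted p = 0.0191), and its call was lost without WT replicate 2 (0.0612), CKO replicate 1 (0.0637) or CKO replicate 3 (0.0573) at 0 h, and with the replicate block (0.0518). Of the 14 proliferation markers, these 2 were called at 0 h, where 4.1% of all genes were higher. The 14 differences ran from -0.24 to 0.97 with a median of 0.07. The part of Mki67 and Top2a in the values of Rrm2 was not tested. Dck was lower in CKO at 0 h by 0.22 ± 0.0695 on the log2 scale without passing (edgeR adjusted p = 0.0672), and it passed without WT replicate 1 at 48 h (0.0471). Dut at 48 h gave 244.6, 226.3 and 227.5 CPM in WT and 201.2, 202.7 and 200.3 in CKO. Its groups did not overlap, yet the difference of -0.21 ± 0.0649 missed the threshold with edgeR (adjusted p = 0.0765) and passed with DESeq2 (0.0373) and with no count filter (0.0382).

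The responses of the remaining members were close between genotypes. Of 35 members without Dnph1, 33 had CKO and WT responses within 0.3 of each other on the log2 scale, the others being Samhd1 and Rrm2 (-0.47 ± 0.168, edgeR adjusted p = 0.213, and 0.00968 with no count filter). For the 6 steps from PRPP to IMP the differences ran from -0.13 to 0.10. By 95% intervals, 28 of 35 members differed in response by less than 0.5, and the others were Impdh1, Guk1, Rrm2, Tyms, Dctd, Tk2 and Samhd1. For all 35 the interval lay within 1.

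A further 52 genes of nucleotide metabolism were listed for comparison, and 42 of them passed the filter. In WT 27 rose and 9 fell, with a median of 0.91, where 38.7% of all genes rose and 39.1% fell. In CKO 27 rose and 10 fell, with a median of 0.96, where 38.5% of all genes rose and 39.2% fell. Of those with the smallest adjusted p, Ak4, a mitochondrial adenylate kinase, rose by 7.23 ± 0.141 in WT and 7.95 ± 0.154 in CKO. Its level at 0 h was low, with means of 0.621 CPM in WT and 0.386 in CKO. Itpa, which removes inosine triphosphate, rose by 2.77 ± 0.106 and 2.77 ± 0.107. The 3 leading genes that fell were Ampd1, an AMP deaminase, by 5.55 ± 0.343 and 6.06 ± 0.372 on the log2 scale, Entpd5 by 1.83 ± 0.0996 and 1.86 ± 0.101, and Uckl1, a relative of Uck2, by 1.62 ± 0.111 and 1.59 ± 0.112. Ampd1 was at a low level at 48 h, with means of 0.264 CPM in WT and 0.184 in CKO.

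Between genotypes 1 of these 42 genes was called higher in CKO at 0 h and 3 lower, near the 4.1% and 3.38% of all genes. Nudt1, which hydrolyses oxidised purine nucleoside triphosphates, was higher in CKO by 0.61 ± 0.161 (edgeR adjusted p = 0.0251). Adenosine kinase Adk was lower, at -0.39 ± 0.101 (0.0229), as were Adal at -0.47 ± 0.131 (0.0338) and Nme6 at -1.10 ± 0.258 (0.0118). All 4 calls were lost when only the 2 groups compared were fitted (edgeR adjusted p = 0.0735 to 0.136) and in some fits without 1 library, with the direction kept. At 0 h Nudt1 lost its call without WT replicate 1 (edgeR adjusted p = 0.0569) or 2 (0.131) or CKO replicate 2 (0.0801) or 3 (0.0822), and Adk without WT replicate 1 (0.0859) or CKO replicate 1 (0.127). Nme6 lost it without WT replicate 3 (edgeR adjusted p = 0.0685) or CKO replicate 3 (0.0574). Adal lost it without WT replicate 2 (edgeR adjusted p = 0.169), CKO replicate 1 (0.108), 2 (0.0743) or 3 (0.0566), or WT replicate 3 at 48 h (0.0513). At 48 h Upb1, which acts in uracil breakdown, was higher by 2.13 ± 0.441 (edgeR adjusted p = 0.00637) at a low level of 0.462 CPM in WT and 2.03 in CKO, and this call was lost without CKO replicate 1 at 48 h (0.0505). Of 4 nucleoside transporters tested, 3 rose with stimulation, where 38.7% of all genes rose in WT and 38.5% in CKO. Slc28a2, a concentrative carrier, fell by 2.65 ± 0.0755 in WT and 2.74 ± 0.0768 in CKO on the log2 scale. At 48 h Slc28a2 was lower in CKO by 0.31 ± 0.0766 on the log2 scale (edgeR adjusted p = 0.0244), where 2.19% of all genes were lower. That call was lost with only the 2 groups compared (0.0763) and without WT replicate 2 (0.0939), WT replicate 3 (0.0968), CKO replicate 1 (0.125) or CKO replicate 3 (0.144) at 48 h.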

How the data were processed

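Per the labels' protocols, TRIzol was used for RNA and a TruSeq Stranded mRNA kit for the libraries. The deposited values are raw read counts per Ensembl gene ID, not normalized. The submitters' processing notes name cutadapt, HISAT2 2.2.1, DESeq2 and genome build GRCm39, with no role or order. The sources used here give no counting program, strand setting or annotation, so overlapping or near-identical genes could share reads. Counts of 12 libraries (15900529 to 22427151 each) were fitted in 1 model with edgeR 4.0.16 (TMM, filterByExpr, robust quasi-likelihood, 1 mean per group, 8 residual degrees of freedom) in R 4.3.3, with Benjamini-Hochberg adjustment over 15935 genes and a threshold of 0.05. The script was tested on simulated counts. Replicates of a group differed by more than sampling noise (chi-square per degree of freedom 3.95 to 20.8). The highest values, 20.8 and 16.5, were those of WT replicate 1 at 48 h against replicates 2 and 3. Between replicates 2 and 3 of that group the value was 4.74. Pair ratios had 0.5 counts added. Exon lengths came from a GRCm38 annotation by ID, and copies were sought with BLAST+ 2.17.0 (at least 95% identity over 200 bases). Members, lists and alternatives were chosen with earlier results of these data known. All 36 members are named, and of the other nucleotide genes the 3 with the smallest adjusted p per comparison and direction, of which 1 is not reported here. Rrm2, Dck and Dut between genotypes, and the leading proliferation and transporter genes, were singled out after their values were seen. Alternatives were other scalings and filters, DESeq2 1.42.0, a replicate block, a log2 threshold of 1, and leaving out libraries.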

Additional observations from a re-analysis of the deposited data

Results flagged for a closer look

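The response of Samhd1 to stimulation differed between the genotypes by -0.51 on the log2 scale (CKO response minus WT response), by a test of the difference itself. It was the only one of the 36 members for which this test passed, and the call was lost when any one of 3 libraries was left out: WT replicate 3 at 0 h, CKO replicate 3 at 0 h or CKO replicate 3 at 48 h (edgeR adjusted p = 0.0548 to 0.0587).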

How the results depend on the processing

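The 180 results of the members (36 genes in 5 comparisons) gave 3743 values under 21 alternatives. Of these, 3685 were labelled the same, 47 lost a call, 11 gained one and 0 were labelled reversed. The label does not count every change of sign. An estimate near 0, such as that of Paics between genotypes at 48 h (-0.0003), can fall on either side. Testing for a log2 change of at least 1 left 25 members higher and 1 lower in WT, 25 higher and 1 lower in CKO, 0 higher at 0 h, 0 lower at 48 h and 0 lower for the difference of responses. With no count filter 3 members were lower at 48 h and 2 for the difference of responses, with DESeq2 2 were lower at 48 h, and with only the 2 groups compared 0 were. Leaving out 1 library at a time gave 1 to 2 members higher and 0 to 1 lower at 0 h, 0 to 1 lower at 48 h and 0 to 1 lower for the difference of responses, and leaving out WT replicate 1 at both times gave 1 lower at 0 h. The cause of these moves was not tested. The sources used here do not say that replicate numbers pair the libraries, and the main fit did not pair them. Correlations of same-numbered deviations were low, from 0.0623 to 0.1622 between the WT times and from 0.0424 to 0.0562 between the CKO times. Yet all 6 libraries of each genotype correlated best with their own number at the other time, so pairing within a genotype is possible. Between genotypes 4 of 6 did so at 0 h and 4 of 6 at 48 h. A replicate block left the members' counts at 32 higher and 3 lower in WT, 31 and 4 in CKO, 2 and 0 at 0 h, 0 and 1 at 48 h, and 0 and 1 for the difference of responses. That block gave WT and CKO libraries of the same number a shared term. A block for pairs within each genotype was not fitted. Low counts at 0 h limit Dnph1, Tyms and Rrm2.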
